A study of Mus musculus with 3 samples.

Results

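The subunits of the IL-12 family of cytokines are encoded in the mouse by Il12a, Il12b, Il23a, Il27 and Ebi3, and these 5 genes were taken by name from the 32285 genes of the count matrices. Their raw counts were described in 30209 cell barcodes from tumours sorted for dendritic cells (DCs), among which NK-like, T cell-like and monocyte- or macrophage-like barcodes were also found. Of these barcodes, 5806 were listed in the deposited table of conventional type 1 dendritic cells (cDC1s), which gives each a cluster from 0 to 11, and 24403 were outside that table.

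Cytokines of the family are built from an alpha chain, which folds like a helical cytokine, and a partner chain that resembles a soluble receptor. The p40 chain encoded by Il12b joins the p35 chain encoded by Il12a to form IL-12, and joins the p19 chain encoded by Il23a to form IL-23, while the chain encoded by Ebi3 joins the p28 chain encoded by Il27 to form IL-27 and the p35 chain to form IL-35. IL-12 made by DCs drives interferon-gamma production by natural killer (NK) cells and T cells, and IL-12 from cDC1s is known for its part in immunity to tumours.

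The cells came from MCA205 LA-OVA tumours, a transplanted mouse fibrosarcoma that expresses ovalbumin, harvested on day 5 from WT mice, sGSN-/- mice, which lack secreted gelsolin, and sGSN-/-Clec9a-/- mice, which also lack DNGR-1, the receptor of cDC1s for dead cells. In the study's methods, pre-cDCs, XCR1-positive cDC1s and Sirpa-positive cDC2s were sorted from tumours on both flanks of male and female mice, pooled by genotype and mixed before sequencing as 1 droplet library for each genotype. The gate had removed cells positive for B220, Ly6D, CD3e, NK1.1 and other lineage markers. The clusters were grouped as early (4 and 1), resting (5, 2, 3, 6 and 0), activated (7, 8, 9 and 10) and rich in mitochondrial transcripts (11).

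The WT library held 12763 barcodes with 176578136 unique molecular identifiers (UMIs), the sGSN-/- library 8173 with 109270958, and the sGSN-/-Clec9a-/- library 9273 with 113411930. The table cDC1s numbered 2316, 1712 and 1778 in the same order, with medians of 14092, 14150 and 12231 UMIs a cell. No genotype had a replicate library, so a genotype and its library cannot be told apart, no test was made between genotypes, and all intervals below are exact 95% intervals for counting error only. Levels are counts per 1000000 UMIs of the same group of cells (CPM), and a mean is over the 3 libraries with its SD (n = 3).

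The Clec9a deletion was visible in the counts of the table cDC1s. Clec9a, which encodes DNGR-1, stood at 168 CPM in WT, 168 in sGSN-/- and 0.0931 in sGSN-/-Clec9a-/-, where 2 UMIs were counted. Gsn, whose UMIs do not separate the secreted from the intracellular form of gelsolin, stood at 152, 169 and 167 CPM. Xcr1, the chemokine receptor that defines cDC1s, stood at 205, 223 and 233 CPM in the same order. The Clec9a counts thus match the genotypes on the labels, and the Gsn counts could not be used to check the other deletion. The libraries shared 26 to 28 barcode sequences by pairs, and 2 or 3 of these were in the table in each pair.

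Of the UMIs of all genes, 80.5% lay outside the cDC1 table, and each subunit is read against that share. Il12b gave 10296 UMIs in 798 barcodes, and 61.9% of the UMIs were in table cDC1s. Ebi3 gave 8347 UMIs in 5928 barcodes, with 81.8% outside the table. Il12a gave 913 UMIs in 424 barcodes, with 99.2% outside and only 7 UMIs in 6 table cDC1s. Il23a gave 684 UMIs in 388 barcodes, with 91.2% outside, and Il27 219 UMIs in 134 barcodes, with 63.9% outside. Relative to all genes, the table cDC1s thus held more than their part of Il12b and Il27, less of Il12a and Il23a, and close to it of Ebi3. In the genome (GRCm38, GENCODE M21), Il12a (ENSMUSG00000027776) is at chr3:68690644-68698547 on the plus strand, Il12b (ENSMUSG00000004296) at chr11:44400063-44414033 on the plus strand and Ebi3 (ENSMUSG00000003206) at chr17:55952640-55957022 on the plus strand. Il23a (ENSMUSG00000025383) is at chr10:128296139-128298752 and Il27 (ENSMUSG00000044701) at chr7:126589010-126594941, both on the minus strand. Il27 overlaps Apobr and Ebi3 overlaps the antisense gene Gm16712, in each case on the opposite strand.

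Il12b, the p40 chain, differed beyond counting error between all 3 libraries in the table cDC1s. Its level was 82.7 CPM (79.6 to 85.8) in WT, 124 CPM (120 to 129) in sGSN-/- and 34.9 CPM (32.4 to 37.5) in sGSN-/-Clec9a-/-, from 2701, 2928 and 749 UMIs. The counting intervals did not overlap, and the level was highest in sGSN-/- and lowest in sGSN-/-Clec9a-/-. With the clusters of each library weighted equally the levels were 209, 194 and 104 CPM in the same order of libraries, with WT the highest. As summed, the sGSN-/- library stood at 1.5 times WT (1.43 to 1.58), and the sGSN-/-Clec9a-/- library at 0.281 times sGSN-/- (0.259 to 0.304) and 0.422 times WT (0.389 to 0.458). At least 1 Il12b UMI was counted in 126 WT cells (5.44%), 161 sGSN-/- cells (9.40%) and 87 sGSN-/-Clec9a-/- cells (4.89%). With each cell thinned to 4000 UMIs the shares were 3.5%, 5.88% and 3.04%. NK-like barcodes (median 6830 UMIs) serve as a class for comparison, and whether their UMIs are free RNA was not tested. Of them, 0.381% had an Il12b UMI, or 0.173% after thinning.

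Cells of cluster 8, the activated cDC1s marked by Ccr7, held 5703 Il12b UMIs, which is 89.4% of those in the table and 55.4% of those in all barcodes. Cluster 8 made up 3.63% of the WT table cDC1s (84 cells, 2.90% to 4.47%), 6.66% of the sGSN-/- ones (114 cells, 5.52% to 7.95%) and 3.21% of the sGSN-/-Clec9a-/- ones (57 cells, 2.44% to 4.13%). The study describes equal contributions of the genotypes to the cDC1 clusters. Within cluster 8 the level was 2434 CPM (2339 to 2531) in WT, 2087 CPM (2008 to 2168) in sGSN-/- and 1048 CPM (961 to 1140) in sGSN-/-Clec9a-/-. So the sGSN-/- library had the largest share of cluster 8 cells but not the highest level within them, and the sGSN-/-Clec9a-/- library had the lowest level, with a share whose interval overlapped that of WT. Within the cluster, sGSN-/- stood at 0.857 times WT (0.812 to 0.906) and sGSN-/-Clec9a-/- at 0.502 times sGSN-/- (0.457 to 0.551). These values include 5 WT, 5 sGSN-/- and 0 sGSN-/-Clec9a-/- cells that were among the barcodes with the highest doublet scores. Without such barcodes the WT level over all table cDC1s was lower, as given in the closing section. The levels and ratios within cluster 8 without them are not given here.

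Il12b was unevenly spread among the cells of cluster 8. It was detected in 60 of 84 WT cells (71.4%), 89 of 114 sGSN-/- cells (78.1%) and 29 of 57 sGSN-/-Clec9a-/- cells (50.9%), or 70.8%, 73.3% and 44.9% after thinning. The median cell held 11 Il12b UMIs in WT, 8.5 in sGSN-/- and 1 in sGSN-/-Clec9a-/-, and the highest cell 210, 210 and 67. Median depth in the cluster was 12310.5, 11035.5 and 8459 UMIs in the same order, so the sGSN-/-Clec9a-/- cells were also the shallowest. Of the 255 cells, 106 (41.6%) held 10 or more Il12b UMIs, and the 26 cells with the most held 54.1% of the UMIs. At the other end, 24 WT, 25 sGSN-/- and 28 sGSN-/-Clec9a-/- cells of the cluster had none, as the plot of Il12b UMIs per cell shows.

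**Figure D1:**
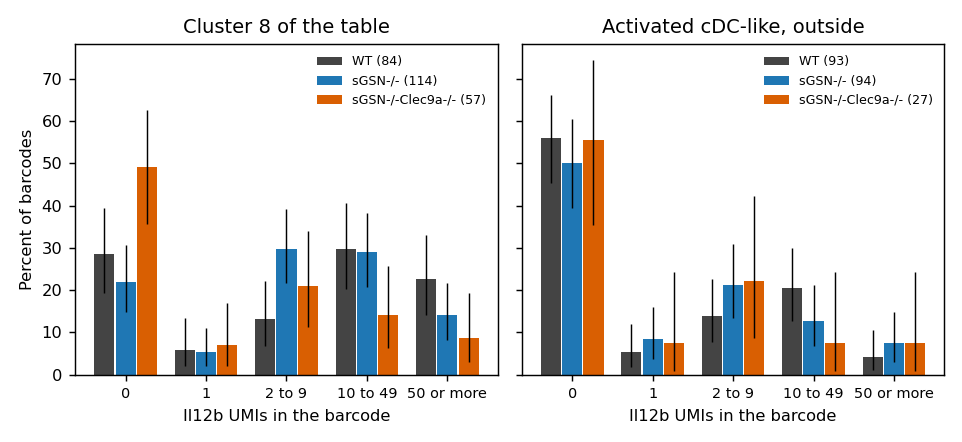
Percent of barcodes (vertical axis, from 0) with 0, 1, 2 to 9, 10 to 49, or 50 or more Il12b UMIs (horizontal axis) in each library, for cluster 8 of the table and for the activated cDC-like barcodes outside it, with exact binomial 95% intervals as error bars. In cluster 8, cells with no Il12b UMI made up 28.6% in WT, 21.9% in sGSN-/- and 49.1% in sGSN-/-Clec9a-/-, and cells with 50 or more made up 22.6%, 14.0% and 8.77%.

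Cluster 8 was not alike in make-up across the libraries. When all barcodes were clustered together, 74 WT cells of cluster 8 (88.1%), 105 sGSN-/- cells (92.1%) and 41 sGSN-/-Clec9a-/- cells (71.9%) fell in the activated cDC-like cluster, a division chosen after seeing the data. Those cells held Il12b at 2739 CPM in WT, 2316 in sGSN-/- and 1863 in sGSN-/-Clec9a-/-. The order of the libraries stayed, but sGSN-/-Clec9a-/- now stood at 0.805 times sGSN-/- (0.732 to 0.883) and 0.680 times WT (0.619 to 0.747). The remaining 10, 9 and 16 cells of cluster 8 held 4, 27 and 0 Il12b UMIs. Ccr7, the receptor that guides DCs to lymph nodes, stood in the whole cluster at 0.481 times its sGSN-/- level in sGSN-/-Clec9a-/-, and at 0.756 times in the cells of the activated cDC-like cluster. Fscn1, an actin-bundling protein of activated DCs, stood at 0.537 times in the whole cluster and at 0.852 times (0.739 to 0.981) in those cells. The part of cell make-up and of depth in the lower Il12b level of sGSN-/-Clec9a-/- was not tested.

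Across the clusters, Il12b levels spanned 3 orders of magnitude. The mean was 1856 ± 721 CPM (SD, n = 3) in cluster 8, 85.7 ± 67.9 in cluster 9, marked by Nfkbiz and Tnfaip3, and 36.6 ± 44.3 in cluster 10, marked by Cxcl9 and Cxcl10. Below these came cluster 2 at 12.2 ± 2.29, cluster 1 at 10.9 ± 7.96 and cluster 7, the cluster of interferon-stimulated genes, at 9.64 ± 1.91. In cluster 7 the top cell of each library held 53.3% to 70.4% of the Il12b UMIs, so its place in the order rests on few cells. Clusters 0, 4, 5, 6 and 3 followed with means from 5.09 down to 1.06 CPM, and no Il12b UMI was counted in cluster 11, whose cells were shallow. Cluster 8 stood apart from every other cluster in each library, whereas clusters 9 and 10, and the neighbours in the order below them, did not differ beyond their spread, since their mean ± SD overlapped.

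**Figure D2:**
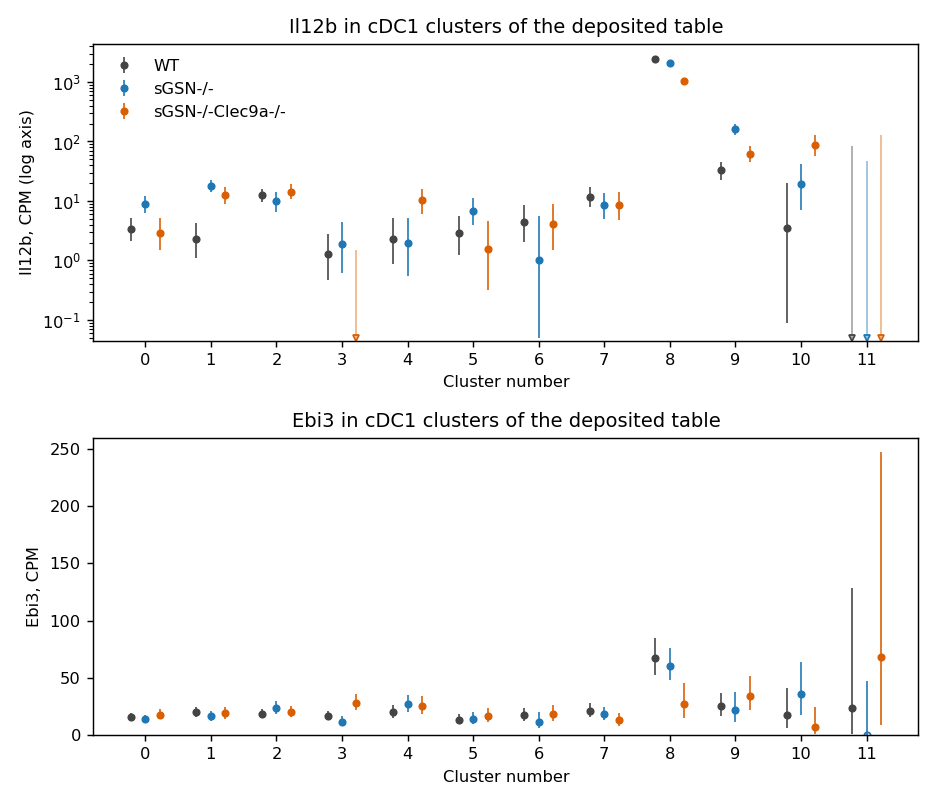
Il12b (top, log axis) and Ebi3 (bottom, linear axis) in CPM for clusters 0 to 11 of the cDC1 table, with a point for each library and bars for exact Poisson 95% intervals, and with open triangles where no UMI was counted and a pale line up to the upper limit. Il12b peaked in cluster 8 in each library, at 1048 to 2434 CPM, while Ebi3 was counted in clusters 0 to 10 at means from 14.7 to 51.5 CPM.

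Outside cluster 8, table cDC1s still held Il12b at low levels. The level there was 5.97 CPM (5.15 to 6.89) in WT, 12.4 CPM (11.01 to 14.0) in sGSN-/- and 9.97 CPM (8.67 to 11.4) in sGSN-/-Clec9a-/-. Both gene-deleted libraries were thus above WT, at 2.08 times (1.72 to 2.52) and 1.67 times (1.36 to 2.04). An Il12b UMI was counted in 2.96%, 4.51% and 3.37% of these cells, or in 1.34%, 2.19% and 1.92% after thinning, above the NK-like share of 0.173%. Only 22 of these 5551 cells held 10 or more Il12b UMIs, and the highest held 26.

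The fits compared sums per library and cluster, 3 against 3, and their p-values describe how alike the libraries are, since these counts also defined the clusters. In cluster 8 against all other table cDC1s, 3 of the 5 subunits passed the filter on low counts, which asks for 0.9 CPM in 3 sums. Il27 met this in 3 sums of cluster 8 and 1 of the other cDC1s, so it could be tested only because it was high in cluster 8, and no count over the subunits is read from this comparison. By the quasi-likelihood test of edgeR, adjusted by Benjamini-Hochberg, 41.7% of 10964 genes were called in either direction (21.3% higher, 20.4% lower). Il12b was higher by a log2 fold change of 7.80 (SE 0.33, adjusted p = 6.9e-11), in 3 of 3 libraries. Ebi3, the partner chain of IL-27 and IL-35, was higher by 1.78 (SE 0.20, adjusted p = 3.56e-06, 3 of 3 libraries), and Il27, the p28 chain, by 3.08 (SE 0.55, adjusted p = 0.000382, 3 of 3 libraries), although from only 18 UMIs in 7 cells. Il12a and Il23a did not pass the filter: cluster 8 held 1 UMI of Il12a and 3 of Il23a in 255 cells. Without TMM factors the median of all genes moved from -0.09 to -0.25 and the called genes that were higher from 51.0% to 38.5%, and Il12b, Ebi3 and Il27 stayed higher.

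Clusters 9 and 10 held Il12b in few cells. In cluster 9 the level was 32.7 CPM (22.6 to 45.6) in WT, 162 CPM (130.4 to 199) in sGSN-/- and 62.2 CPM (44.8 to 84.0) in sGSN-/-Clec9a-/-, from 5, 8 and 6 cells. In cluster 10 it was 3.54 CPM (0.0897 to 19.7), 19.3 CPM (7.10 to 42.1) and 87.0 CPM (56.8 to 128), from 1, 2 and 3 cells. The library with the highest level was therefore sGSN-/- in cluster 9 and sGSN-/-Clec9a-/- in cluster 10, and no cluster 10 cell held more than 11 UMIs. Against all other cDC1s, edgeR called 0 of the 3 subunits tested in cluster 9 (8.05% of all genes called, 4.44% higher and 3.61% lower) and 0 of 3 in cluster 10 (7.50%, 3.74% higher and 3.76% lower), with 1 (Ebi3) and 0 at an unadjusted p under 0.05, and DESeq2 called 0 in each. The other cDC1s include cluster 8. With cluster 8 left out, an alternative chosen after seeing the data, Il12b in cluster 9 was higher by a log2 fold change of 3.41 (SE 0.38, adjusted p = 7.38e-06, 3 of 3 libraries), and in cluster 10 it read 1.99 (SE 0.65, adjusted p = 0.0665, higher in 2 of 3 libraries). Counting these fits among the alternatives of the comparisons with all other cDC1s, the adjusted p of Il12b ran from 7.38e-06 to 0.985 in cluster 9 and from 1.84e-05 to 0.866 in cluster 10. The lowest in cluster 10 was that with no filter on low counts and cluster 8 kept in, with a log2 fold change of -1.22. Among genes called in cluster 10, 49.9% were higher, against 66.5% with DESeq2 and 61.1% without TMM factors.

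The pair of activated states that the study sets side by side, cluster 8 with Ccr7 and cluster 10 with Cxcl9, could be compared for Il12b and Ebi3, where 35.0% of 4229 genes were called (18.8% higher, 16.2% lower). Both reached the 24.2 CPM of the filter in 3 sums of cluster 8 and 1 of cluster 10, and so passed it only through cluster 8. Il12b was higher in cluster 8 by a log2 fold change of 5.79 (SE 0.52, adjusted p = 2.59e-06 by the quasi-likelihood test of edgeR, adjusted by Benjamini-Hochberg, 3 of 3 libraries), and with 1 library left out this ran from 5.04 without WT to 7.75 without sGSN-/-Clec9a-/- (adjusted p 9.47e-11 to 8.83e-05). Ebi3 was higher by 1.58 (SE 0.45, adjusted p = 0.0146, 3 of 3 libraries), and without the WT library this read 1.29 with an adjusted p of 0.142 (8.38e-05 to 0.142 over the alternatives). Cluster 10 had 76 cells, so the subunits other than Il12b rested there on few UMIs, with 18 of Ebi3 and 2 of Il27. Without TMM factors the median of all genes moved from 0.01 to -0.16, and 39.1% of the called genes were higher instead of 53.8%.

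The promoters of Il12b and Ebi3, the members that were both higher in cluster 8 and counted in many cells, are shown because their levels rose together there. RefSeq promoter entries (GRCm38.p6) matched 3 of the 5 members, and the 250 bases before the RefSeq start, which for Ebi3 lies before the GENCODE start given above, are chr11:44399813-44400062 for Il12b and chr17:55952373-55952622 for Ebi3, both on the plus strand. They are given from 5′ to 3′, with capitals for a match to the NF-kappaB consensus.
Il12b: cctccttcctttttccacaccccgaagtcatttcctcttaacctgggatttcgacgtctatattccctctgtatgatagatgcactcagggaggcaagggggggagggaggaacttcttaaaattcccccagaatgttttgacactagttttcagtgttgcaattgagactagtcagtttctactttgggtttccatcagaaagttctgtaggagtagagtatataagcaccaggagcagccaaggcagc
Ebi3: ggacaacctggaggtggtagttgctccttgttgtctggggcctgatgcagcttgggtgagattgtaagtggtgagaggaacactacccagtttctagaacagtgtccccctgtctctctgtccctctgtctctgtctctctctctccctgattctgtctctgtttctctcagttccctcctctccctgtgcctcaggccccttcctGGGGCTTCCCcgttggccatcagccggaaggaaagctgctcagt
The match in Ebi3 reads the same site on both strands and lies 44 to 35 bases before the RefSeq start, and 7.25% of 32851 promoters of this length hold a match. The other motifs searched on both strands were TGANTCA (6.75% of promoters), GAAA followed after any 2 bases by GAAA (2.98%) and TATAAA (12.4%), and none was found in Il12b, Ebi3 or Il12a, nor was the NF-kappaB consensus in Il12b or Il12a. The NF-kappaB consensus searched was GGGRNNYYCC, where R is A or G, Y is C or T and N is any base. Sites that depart from it were not searched for, so a window without a match may still hold one. These are letters in a window, with no measurement of binding.

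Genes with a pattern like that of the subunits were ranked by Pearson correlation of log2 CPM over 33 sums, 3 libraries by clusters 0 to 10, among 3618 genes. For Il12b the closest were Mir155hg (r = 0.935), the host gene of a microRNA of activated immune cells, N4bp2l1 (0.932), Serpinb6b (0.926), a protease inhibitor, Arl5c (0.925), a small GTPase of the ARF family, and Ccr7 (0.925). For Ebi3 they were Fam32a (0.790), Med11 (0.781), a Mediator subunit, Cd200 (0.777), an inhibitory surface ligand, N4bp2l1 (0.775) and Tank (0.773), an adaptor of NF-kappaB signalling. The sums share libraries and depth, and cluster 8 carried much of the likeness: over the 30 sums without it, r fell to between 0.502 and 0.740 for Il12b and between 0.430 and 0.538 for Ebi3.

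Outside the table, Il12b was concentrated in activated cDC-like barcodes, a cluster of all barcodes led by Ccr7, Il12b itself, Fscn1 and Ccl22, so its high level there is in part how the cluster was found. The 214 such barcodes outside the table held 56.0% of the Il12b UMIs counted outside it. The level was 541 CPM (503 to 581) in WT, 844 CPM (799 to 892) in sGSN-/- and 464 CPM (399 to 537) in sGSN-/-Clec9a-/-, from 93, 94 and 27 barcodes. The sGSN-/- library was again highest and the other libraries lay closer together, with sGSN-/- at 1.56 times WT (1.43 to 1.71) and sGSN-/-Clec9a-/- at 0.859 times WT (0.726 to 1.01). Il12b was detected in 44.1%, 50% and 44.4% of them, or 37.8%, 41.9% and 29.6% after thinning, at an overall median depth of 11466.5 UMIs. Il12b was again uneven, with 46 of 214 barcodes at 10 or more UMIs. The top barcode held 9.80% of the UMIs in WT, 17.8% in sGSN-/- and 37.2% in sGSN-/-Clec9a-/- (68 of 183). Without the top barcode of each library, an alternative chosen after seeing the data, the levels were 490, 701 and 309 CPM. The sGSN-/- library remained the highest, at 1.43 times WT (1.30 to 1.58), while sGSN-/-Clec9a-/- stood at 0.631 times WT (0.514 to 0.771), an interval that no longer included 1.

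These barcodes carried more cDC2 and less cDC1 marker RNA than cluster 8. Sirpa, a cDC2 marker, averaged 76.7 CPM against 10.9 in cluster 8, Mgl2, a lectin of cDC2s, 216 against 16.8, and Itgam, the CD11b integrin chain, 75.1 against 5.57. Xcr1 averaged 23.2 CPM against 149, while Ccr7 was similar at 1945 and 2001. The 33 barcodes with a UMI of Xcr1 or Clec9a held Il12b at 479 CPM in WT, 1561 in sGSN-/- and 37.8 in sGSN-/-Clec9a-/-, where they numbered 3 and the Clec9a deletion leaves Xcr1 to mark them. Of these 33, 54.5% were among the barcodes with the highest doublet scores, against 9.94% of the other 181, and their median depth was 21369 against 10916 UMIs. The part of doublets and depth in these levels was not tested. The 181 barcodes without either held 557, 590.1 and 621 CPM, and with all of them kept the libraries lay close together. In sGSN-/-Clec9a-/- these were 24 barcodes with 179 Il12b UMIs, of which 1 barcode held 68. The closeness thus rests in part on that barcode, and the level of this subset without it was not computed. This division was chosen after seeing the data.

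Against cluster 8, the activated cDC-like barcodes outside the table held less Il12b. The log2 fold change was -1.71 (SE 0.26, adjusted p = 0.000672 by the quasi-likelihood test of edgeR, adjusted by Benjamini-Hochberg, lower in 3 of 3 libraries), and 1 of the 2 subunits tested was called against 19.4% of 7007 genes (9.08% higher, 10.3% lower). With no filter on low counts, 1731 of 14958 genes were called (841 higher, 890 lower). All 5 subunits were then tested and 3 were called, all lower. Of these 5, Il12a, Il23a and Il27 held only 0, 4 and 1 UMIs in these barcodes, so that count is not read. Ebi3 read -0.70 (SE 0.26, adjusted p = 0.0760, lower in 2 of 3 libraries) and was not called. It passed the threshold with the library as a replicate block (-0.74, adjusted p = 0.0238), with no filter on low counts (-0.73), without sGSN-/-Clec9a-/- (-0.87) and with cluster 8 limited to cells of the activated cDC-like cluster (-0.96), the adjusted p running from 0.00542 to 0.469 over the alternatives. Without TMM factors the median of all genes moved from 0.00 to 0.14 and the called genes that were higher from 46.8% to 63.6%.

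In other classes outside the table, Il12b was low or rested on single barcodes. The cDC1-like barcodes averaged 20.2 ± 19.7 CPM (SD, n = 3) and the pre-cDC-like ones 0.888 CPM, where the NK-like mean was 0.486. In cDC2-like barcodes, 21 UMIs were counted in WT, 11 in sGSN-/- and 150 in sGSN-/-Clec9a-/-, and in plasmacytoid-like ones 73, 1 and 12. A single barcode gave 142 of the sGSN-/-Clec9a-/- UMIs and another gave 72 of the WT ones, so these sums do not describe their classes. In an unnamed cluster with macrophage and cDC2 markers, 7 sGSN-/- barcodes held 259 of its 277 UMIs.

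**Figure D3:**
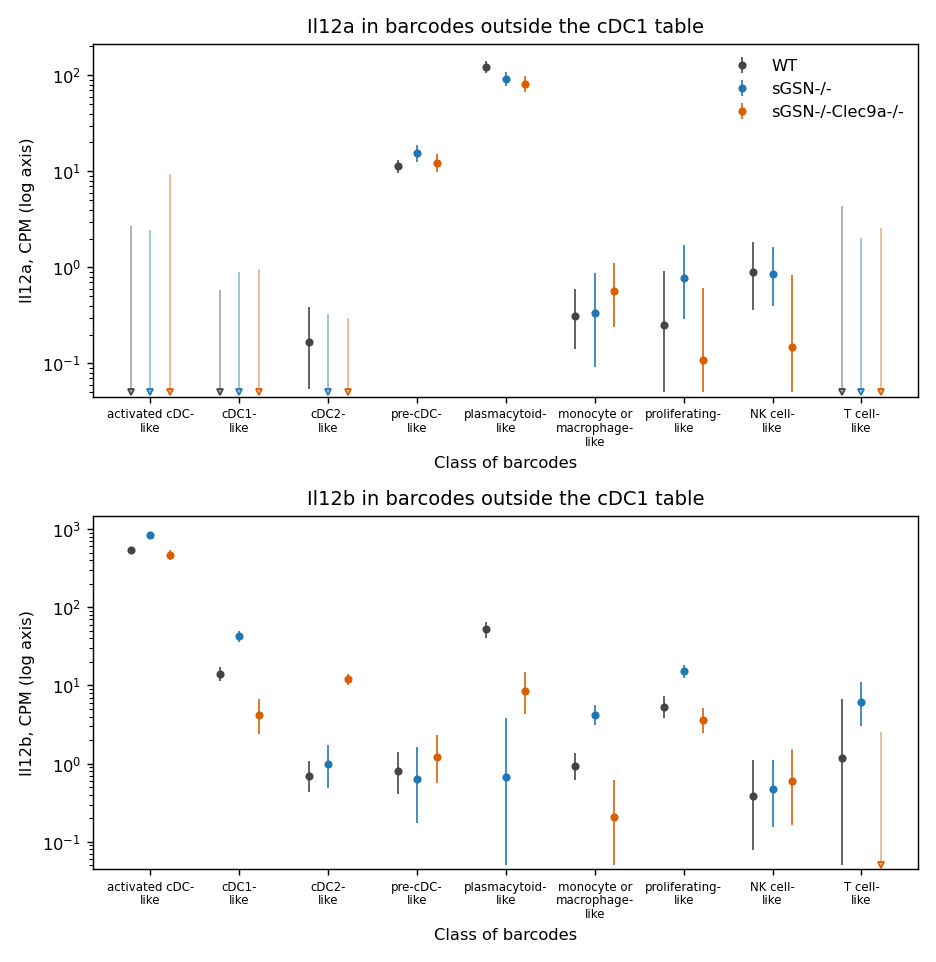
Il12a (top) and Il12b (bottom) in CPM on log axes for 9 classes of barcodes outside the cDC1 table, with a point for each library and bars for exact Poisson 95% intervals, and with open triangles where no UMI was counted and a pale line up to the upper limit. Il12a was highest in the plasmacytoid-like class in each library, at 82.0 to 123 CPM, and Il12b was highest in the activated cDC-like class, at 464 to 844 CPM.

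Il12a, the p35 chain without which no IL-12 is formed, was found mainly in cells other than those with Il12b. The plasmacytoid-like barcodes, 362 outside the table, held 46.5% of all Il12a UMIs. Their level was 123 CPM (105.2 to 143) in WT, 92.0 CPM (77.1 to 109) in sGSN-/- and 82.0 CPM (67.8 to 98.3) in sGSN-/-Clec9a-/-. WT was highest, and the intervals of WT and sGSN-/- overlapped at their ends, as did those of the gene-deleted libraries over most of their width. The ratio of sGSN-/- to WT was 0.749 (0.593 to 0.943) and that of sGSN-/-Clec9a-/- to WT 0.668 (0.523 to 0.849). The top WT barcode held 24 of the 173 WT UMIs (13.9%). Without it, an alternative chosen after seeing the data, the ratios were 0.864 (0.679 to 1.10) and 0.770 (0.599 to 0.988), and with the barcode of most UMIs left out in each library 0.811 (0.635 to 1.04) and 0.693 (0.534 to 0.896), so the interval for sGSN-/- then included 1. Il12a was detected in 55 of 122, 53 of 124 and 43 of 116 barcodes (45.1%, 42.7% and 37.1%), or in 29.0%, 26.4% and 23.4% after thinning, at a median depth of 9797 UMIs, where 0.555% of NK-like barcodes had a UMI, or 0.258% after thinning.

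The class was named from markers of plasmacytoid DCs, of which 6 of 6 were high in it, and it was led by Siglech, a surface lectin, Klk1, a kallikrein protease, Ccr9, a chemokine receptor, and Cox6a2, a subunit of cytochrome c oxidase. Siglech averaged 1588 CPM and had a UMI in 99.7% of the barcodes. The sort gate against B220 and Ly6D would remove mature plasmacytoid DCs, and 2 of 7 cDC1, 4 of 6 cDC2 and 3 of 4 pre-cDC markers were also high, so the barcodes are called plasmacytoid-like here. Of them, 16.0% were among the barcodes with the highest doublet scores, against 6% of each library.

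The pre-cDC-like barcodes held Il12a at a lower level. It stood at 11.3 CPM (9.64 to 13.1) in WT, 15.4 CPM (12.5 to 18.8) in sGSN-/- and 12.3 CPM (9.87 to 15.1) in sGSN-/-Clec9a-/-, from 81, 45 and 53 barcodes. The libraries lay close together here, with a mean of 13.0 ± 2.13 CPM (SD, n = 3), and 6.25%, 7.51% and 6.62% of the barcodes had a UMI. Il12a went with Siglech in this class: 133 of 786 barcodes with a Siglech UMI (16.9%, median 10271.5 UMIs) had Il12a, against 46 of 1910 without (2.41%, median 9977 UMIs), or 9.87% against 1.33% after thinning. With a Leiden resolution of 0.5 no pre-cDC-like cluster was named, and its barcodes fell in a cDC2-like one.

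In the other named classes few Il12a UMIs were counted. There were none in the 214 activated cDC-like barcodes, where a count of 0 allows up to 2.18 CPM in WT, 1.998 in sGSN-/- and 7.61 in sGSN-/-Clec9a-/- (3 counts). These limits lie above the NK-like mean, so a low level there could not be seen. There were also none in cDC1-like barcodes outside the table, with limits from 0.472 to 0.775 CPM. In cDC2-like barcodes it averaged 0.0555 CPM and in monocyte- or macrophage-like ones 0.403. Both lie below the NK-like mean of 0.633 CPM, which is therefore no floor for Il12a. Among the named classes, mean levels thus fell from plasmacytoid-like at 99.0 ± 21.3 CPM to pre-cDC-like at 13.0 ± 2.13, beyond their spread, and the means of the other named classes were lower, with the limits above. A shallow unnamed cluster of 936 barcodes (median 1847 UMIs), in which 6 of 6 cDC2, 2 of 4 pre-cDC and 1 of 6 plasmacytoid markers were high, held 27 Il12a UMIs in 17 barcodes. Its mean of 16.7 ± 13.4 CPM (SD, n = 3) overlapped that of the pre-cDC-like class.

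Cells with both chains of IL-12 were rare. Of 30209 barcodes, 5 held UMIs of both Il12a and Il12b, where 11.2 would be counted if the 424 and 798 barcodes with each were independent. Il12a had a UMI in 0.627% of the Il12b-positive barcodes (0.204% to 1.46%) and in 1.42% of the others. The only 1 of the 5 in cluster 8 came from sGSN-/-Clec9a-/-, with 1 Il12a and 14 Il12b UMIs. Of the others, 3 were plasmacytoid-like, 1 from each library, and 1 was of no named class, and each of these 4 held 1 Il12b UMI. No barcode held 2 or more UMIs of each chain. After thinning to 4000 UMIs, 0.345 barcodes with at least 1 UMI of each chain would be counted, against 3.51 if independent. Pairing with Il12a at a low level was not detectable at this depth. Independence over all barcodes, here and for the pairs below, pools classes that differ in both genes. Within classes, without the highest doublet scores, both chains were in 3 plasmacytoid-like barcodes (1.70 if independent), 1 cluster 8 cell (0.694) and 0 pre-cDC-like barcodes (0.966). These are too few to read pairing within a class.

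Il23a, the p19 chain that pairs with p40 to form IL-23, was rare in cDC1s, and its mean over the libraries was highest in cluster 7. In all table cDC1s it stood at 1.04 CPM (0.721 to 1.45) in WT, 0.509 CPM (0.263 to 0.890) in sGSN-/- and 0.652 CPM (0.356 to 1.09) in sGSN-/-Clec9a-/-, from 34, 12 and 14 UMIs. The intervals overlapped across the libraries. In cluster 7, the interferon-stimulated state, the level was 5.26 CPM (2.72 to 9.19), 1.89 CPM (0.516 to 4.85) and 1.71 CPM (0.353 to 4.997), from 9, 3 and 3 cells. WT was the highest there, with 12 of 19 UMIs. The mean of 2.96 ± 2.0 CPM in cluster 7 overlapped that of 1.52 ± 1.87 in cluster 9, and in sGSN-/- cluster 9 at 3.60 and cluster 10 at 3.22 CPM lay above cluster 7.

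Against the other cDC1s, cluster 7 had 14.8% of 10825 genes called (10.3% higher, 4.53% lower), and 4 subunits passed the filter. Il23a and Il27 reached its 0.909 CPM in 3 sums of cluster 7 and 0 of the other cDC1s, so they could be tested only because they were high in cluster 7. Il23a was higher by a log2 fold change of 2.54 (SE 0.53, adjusted p = 0.00491 by the quasi-likelihood test of edgeR, adjusted by Benjamini-Hochberg, 3 of 3 libraries), but without the WT library it read 2.06 with an adjusted p of 0.120 (6.52e-05 to 0.120 over the alternatives). Il27 was higher by 4.67 (SE 0.44, adjusted p = 6.13e-06, 3 of 3 libraries), or by 4.12 to 5.30 with 1 library left out. Il12b was lower, at -3.02 (SE 0.53, adjusted p = 0.0014, 3 of 3 libraries), but with cluster 8 left out of the other cDC1s it read 0.20 (SE 0.38, adjusted p = 0.797, and 3.75e-93 to 0.797 over the alternatives). Ebi3 read -0.07 (SE 0.15, adjusted p = 0.855). Of the called genes 69.4% were higher, against 43.4% without TMM factors, where the median of all genes moved from -0.03 to -0.15.

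Outside the table, cDC2-like barcodes held 26.0% of the Il23a UMIs and monocyte- or macrophage-like barcodes 19.4%, and the rest was spread over other classes. In the cDC2-like class it stood at 2.96 CPM (2.38 to 3.65) in WT, 2.40 CPM (1.58 to 3.496) in sGSN-/- and 3.69 CPM (2.70 to 4.92) in sGSN-/-Clec9a-/-. The intervals overlapped across all 3 libraries, and 2.14%, 2.17% and 2.36% of the barcodes had a UMI (median depth 13676 UMIs), or 0.845%, 0.779% and 0.977% after thinning, against 0.179% of NK-like barcodes, or 0.0299% after thinning. In the monocyte- or macrophage-like class 84, 17 and 20 UMIs were counted, and 1 WT barcode held 30 of the 84, with 54 left without it. Both chains of IL-23, Il23a and Il12b, were found in 21 barcodes, where 10.2 would be counted if they were independent, and 2.63% of the Il12b-positive barcodes had Il23a, against 1.25% of the others. These 21 were deep, with a median of 18513 UMIs, 3 of them were among the highest doublet scores, and 3 were in cluster 8 and 3 in the activated cDC-like class outside the table. After thinning, 4.34 would be counted against 1.92 if independent, and without the highest doublet scores 18 were counted against 8.40.

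Il27, the p28 chain of IL-27, was scarce, and cluster 7 held 53 of its 219 UMIs. There it stood at 6.58 CPM (3.68 to 10.8) in WT, 8.05 CPM (4.69 to 12.9) in sGSN-/- and 11.97 CPM (7.41 to 18.3) in sGSN-/-Clec9a-/-. The intervals overlapped, and the 53 UMIs came from 16 of 422 cells. In each library the top cell held much of the count, 10 of 15 UMIs in WT (66.7%), 7 of 17 in sGSN-/- (41.2%) and 15 of 21 in sGSN-/-Clec9a-/- (71.4%). Without these cells, an alternative chosen after seeing the data, the levels were 2.21, 4.78 and 3.47 CPM, and sGSN-/-Clec9a-/- was no longer the highest. Cluster 8 held 5.81, 8.66 and 1.94 CPM, from 2, 4 and 1 cells, and no Il27 UMI was counted in cluster 9. In all table cDC1s the level was 0.734 CPM in WT, 1.32 in sGSN-/- and 1.12 in sGSN-/-Clec9a-/-, and the ratio of sGSN-/- to WT was 1.79 (1.02 to 3.19), from 31 and 24 UMIs. Without the top cell of each library it was 2.28 (1.12 to 4.79), and the levels were 0.429, 0.977 and 0.420 CPM.

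Outside the table, Il27 was spread over several classes, with 33 UMIs in monocyte- or macrophage-like, 14 in pre-cDC-like and 30 in an unnamed cluster led by interferon-induced genes. In a cDC1-like cluster led by Cxcl9 and Ifit2, 15 UMIs were counted in 4 of 93 barcodes, 12 of them in 1 sGSN-/- barcode. The unnamed cluster was led by Ifit3, Ifit1 and Rsad2, which interferon induces, and by Cxcl10, an interferon-induced chemokine. Its 371 barcodes held 5.45 CPM (3.05 to 8.996) in WT, 11.1 CPM (5.74 to 19.4) in sGSN-/- and 2.21 CPM (0.456 to 6.46) in sGSN-/-Clec9a-/-. The sGSN-/- value rested on 2 barcodes, 1 of which held 10 of the 12 UMIs. Isg15, a ubiquitin-like protein induced by interferon, averaged 1801 CPM there and 1394 CPM in cluster 7. Monocyte- or macrophage-like barcodes held Il27 at 0.517, 0.760 and 0.631 CPM, in 32 barcodes (0.918%, median depth 14747 UMIs), where NK-like barcodes had a share of 0.0790%.

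Ebi3, the partner chain of IL-27 and IL-35, was the most widely detected subunit, and its level summed over all table cDC1s varied little between the libraries. In all table cDC1s it stood at 19.2 CPM (17.7 to 20.8) in WT, 19.4 CPM (17.7 to 21.3) in sGSN-/- and 20.1 CPM (18.3 to 22.1) in sGSN-/-Clec9a-/-. The 3 values lay within each other's intervals, and sGSN-/- stood at 1.01 times WT (0.893 to 1.14). A UMI was counted in 21.4%, 19.3% and 19.2% of cells, or 7.18%, 6.97% and 7.41% after thinning, against 0.789% of NK-like barcodes, or 0.363% after thinning. By cluster, the means ran from 14.7 CPM in cluster 5 to 24.2 ± 3.49 in cluster 4, an early state, 26.9 ± 6.42 in cluster 9 and 51.5 ± 21.3 in cluster 8 (SD, n = 3), and the mean ± SD of neighbours overlapped. Cluster 8 was above cluster 9 in WT and sGSN-/- but not in sGSN-/-Clec9a-/-. Cluster 11 is left out of the order, since its 60 cells held 3 Ebi3 UMIs.

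In cluster 8, Ebi3 followed the same order of libraries as Il12b. It stood at 66.8 CPM (52.0 to 84.6) in WT, 60.6 CPM (47.8 to 75.8) in sGSN-/- and 27.2 CPM (14.9 to 45.6) in sGSN-/-Clec9a-/-, from 69, 77 and 14 UMIs. The sGSN-/-Clec9a-/- level was below the lower bound of both other libraries, at 0.448 times sGSN-/- (0.234 to 0.798). In the cells of the activated cDC-like cluster alone the levels were 75.3, 68.0 and 38.0 CPM, with sGSN-/-Clec9a-/- again the lowest, at 0.559 times sGSN-/- (0.268 to 1.06), an interval that includes 1. Against WT, sGSN-/-Clec9a-/- stood there at 0.504 times (0.240 to 0.959), an interval that does not include 1. Outside the table, cDC2-like barcodes had the highest class mean, at 38.2 ± 1.79 CPM, followed by activated cDC-like barcodes at 35.3 ± 4.50 and monocyte- or macrophage-like ones at 26.1 ± 2.16, and the first pair did not differ beyond their spread. A UMI was counted in 39.2%, 39.9% and 31.0% of the cDC2-like barcodes, or 14.3%, 13.8% and 13.2% after thinning. The pre-cDC-like class held 16.2, 15.5 and 14.1 CPM.

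Both chains of IL-27, Il27 and Ebi3, were found in 39 barcodes, where 26.3 would be counted if they were independent. Il27 had a UMI in 0.658% of the Ebi3-positive barcodes and 0.391% of the others, whose median depths were 16232 and 10954 UMIs. Of the 39 barcodes, 10 were in the table, 4 of these in cluster 8 and 3 in cluster 7, while 9 were monocyte- or macrophage-like and 11 of no named class. In cluster 7, where Il27 was most often counted among the table's clusters, 3.80% of the Ebi3-positive and 3.79% of the other cells had it, so the chains showed no pairing there at this depth. The chains of IL-35, Il12a and Ebi3, were found together in 44 barcodes, fewer than the 83.2 to be counted if independent, and 14 of the 44 were among the highest doublet scores. Of the 44, 18 were pre-cDC-like and 10 plasmacytoid-like, the classes with Il12a. Within these classes, without the highest doublet scores, 17 pre-cDC-like barcodes held both chains (23.1 if independent) and 3 plasmacytoid-like ones (2.98).

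The genes around the subunits were counted in 4 lists: 11 receptor chains and signalling proteins, 14 transcription factors with a known role at subunit genes, 8 genes upstream of their induction (receptors and an adaptor) and 6 genes of responding NK and T cells, which include receptor chains and a transcription factor beside secreted products. In cluster 8, where 21.3% of all genes were called higher and 20.4% lower, 7 of 9 receptor and signalling genes tested rose and none fell, with a median log2 fold change of 1.29 against -0.09 for all genes. They included Stat4, the transducer of IL-12 signals (4.94), Jak2 (1.55), the kinase bound to the IL-12 receptor, and Il12rb2 (3.08), a chain of that receptor. Jak2 stood at 338, 379 and 336 CPM in cluster 8 in WT, sGSN-/- and sGSN-/-Clec9a-/-, against 141, 140.4 and 125 in the other cDC1s. Of the 14 transcription factors, 10 rose and 2 fell (median 1.12). Relb (4.30), Nfkb2 (2.61), Rel (2.11) and Nfkb1 (2.08), which encode NF-kappaB subunits, rose, and Irf8 (-0.68) and Batf3 (-0.50), on which cDC1 identity depends, fell. Irf8 stood at 723, 680.1 and 625 CPM in cluster 8 against 1235, 1208 and 1208 in the other cDC1s. Of the 8 upstream genes, 4 rose, among them Cd40 (3.86), the receptor for T cell help, and 3 fell, among them Tlr3 (-2.73), a sensor of viral RNA (median -0.33). Among the NK and T cell genes Gzmb rose (3.5), a granule protease with 3, 90 and 2 UMIs in cluster 8, and thus from the sGSN-/- library. In that list Il18rap passed the filter only through cluster 8, so no count of the list is read.

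The same lists were counted in the other activated clusters, without a test of the difference between clusters. In cluster 7, where 10.3% of all genes were called higher and 4.53% lower, 1 of 9 receptor and signalling genes rose and 1 fell (median -0.15 against -0.03 for all genes). There 2 of 14 transcription factors rose and 1 fell (median 0.01), 6 of 8 upstream genes rose and 1 fell (0.64), with Cd40 at 1.95, and 0 of 3 NK and T cell genes were called (-0.05). In cluster 9, with 4.44% called higher and 3.61% lower, 2 of 9 receptor and signalling genes rose (0.23 against -0.03). There 7 of 14 transcription factors rose and 1 fell (0.42), with Nfkbiz, a nuclear partner of NF-kappaB, at 4.05. Of 8 upstream genes 2 rose (0.18). No NK or T cell gene was called, but Tbx21 passed the filter only through cluster 9, so no count of that list is read. In cluster 10, with 3.74% called higher and 3.76% lower, 2 of 9 receptor and signalling genes rose and 1 fell (0.02 against -0.12), 6 of 14 transcription factors rose (0.56), with Irf1, an interferon-induced activator, at 3.55, 2 of 8 upstream genes rose and 2 fell (0.10), and 3 NK and T cell genes rose. These passed the filter only through cluster 10, so no count or median of that list is read. They were Tbx21 (3.81), a transcription factor, and Il18r1 (3.47) and Il18rap (2.77), chains of the IL-18 receptor, and none encodes a secreted product. In total 16 listed genes were called in cluster 10, these 3 among them, and 9 without the sGSN-/- library. For the same reason that total is not read as a result about the lists.

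Cluster 8 was set directly against cluster 10, with 18.8% of all genes called higher and 16.2% lower. Among the receptor and signalling genes Jak2 and Stat3 were higher, as were Stat4 (3.81) and Il6st, a chain of the IL-27 receptor. Stat4 and Il6st passed the filter only through cluster 8, so no count of that list is read. Cluster 8 had 4 of 13 transcription factors higher and 3 lower (0.29), with Relb, an NF-kappaB subunit, at 2.58 and Irf1 at -1.37. It had 0 of 7 upstream genes higher and 2 lower (0.05), and no NK or T cell gene of the list passed the filter. The activated cDC-like barcodes outside the table were also set against cluster 8 (9.08% of all genes higher and 10.3% lower). They had 0 of 8 receptor and signalling genes higher and 2 lower (-0.28 against 0.00). Of 7 upstream genes, 1 was higher and 3 were lower (-0.15), and 0 of 1 NK and T cell gene was called. Irf1 (-1.40), Relb (-0.58) and Batf3 (-0.60) were lower there, as was Cd40 (-0.73), and Nfkbiz was higher (1.25). Cebpb, a transcription factor of myeloid cells, was also higher, but it passed the filter only through these barcodes. No count or median of the transcription factors is therefore read from this comparison. In that comparison 13 of the listed genes were called, Cebpb among them, and 5 without the WT library and 4 without sGSN-/-. Over all genes 1358 of 7007 were called, 497 of 6500 without WT and 471 of 6028 without sGSN-/-. Because Cebpb is among the 13, that total is not read as a result about the lists.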

How the data were processed

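Single-cell RNA was measured in 3 libraries, 1 for each genotype. According to the study, the authors aligned reads to mm10 (GRCm38) with Cell Ranger (6.0.1 per the file headers) and analysed them with Seurat, whose version the labels give as 4.0.0, the number the paper gives for R. The deposited matrices hold raw counts of UMIs, and the deposited cDC1 table gives a cluster for 5806 barcodes. The deposited UMAP scores, which the authors made with Seurat, were not used. UMI totals in the table equalled those in the matrices for 4559 barcodes and differed in 1247, by at most 34. Totals were 109270958 to 176578136 UMIs a library.

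The members and the gene lists were chosen with earlier results of these data known. Named genes were the 5 members, the 5 genes most like each member with at least 100 UMIs in the table (log2 CPM plus 10, genes with a mean of at least 50 CPM in a cluster), 4 pathway lists, of which up to 4 genes by level were given levels, and checks of the labels. Genes outside this rule that the text names, such as leading genes of clusters and list members named by their fold change, were chosen after their values were seen.

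All barcodes with at least 200 genes and a mitochondrial share up to 16.7% (2 SDs above the mean) were clustered, 28855 of 30209, with 54 left out for few genes and 1300 for mitochondrial share: 2000 variable genes, 50 principal components, 20 neighbours and Leiden resolution 1, giving 25 clusters, in scanpy 1.11.5 and leidenalg 0.10.2 under Python 3.11.15. A cluster took the name of a cell type when at least 3 of its markers were in 10% or more of barcodes and at least 2 times the median over clusters, and the type led among its 10 leading genes or was alone. The 6% of barcodes with the highest Scrublet scores in each library (765, 490 and 556) were marked as possible doublets, kept in the values given, and left out in an alternative. Shares of cells have Clopper-Pearson intervals, levels exact Poisson intervals and ratios exact conditional binomial intervals (scipy 1.17.1), and the limit for a level with no UMI is 3 counts. Intervals cover counting error only. Thinning is the exact expectation for 4000 UMIs a cell, with 5608 shallower barcodes left out, 295 of them in the table.

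Counts were summed per library and group of cells and fitted with edgeR 4.0.16 (filterByExpr, TMM factors, quasi-likelihood test, Benjamini-Hochberg over all genes tested, threshold 0.05) in R 4.3.3. The sums of the compared groups pair by library, since they come from the same pool, and sums of a library, each taken relative to its group's mean, correlated at -0.0233 to 0.156. No block was used in the values given, and the block was tried as an alternative. In cluster 7 the 3 correlations lay at the upper end, at 0.136 to 0.156. The block moved the genes called from 1603 to 2099 in cluster 7 and from 798 to 533 in cluster 10. The authors' Wilcoxon test over cells was not used, since cells of a library are not replicates. Alternatives were DESeq2 1.42.0, no TMM factors, no filter, the library as a block, each library left out, cDC1s clustered again without the 5 genes (resolution 0.8, 30 components), resolution 0.5, clusters weighted equally, thinning, 2 UMIs of each chain and doublets left out. Chosen after seeing the data were cluster 8 left out of the other cDC1s, cluster 8 limited to those of its cells that fell in the activated cDC-like cluster, barcodes with a UMI of Xcr1 or Clec9a left out, and the barcode with most UMIs of a subunit left out, in each library or, for Il12a, in WT alone. The pipeline was tested on simulated data.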

Additional observations from a re-analysis of the deposited data

How the results depend on the processing

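Of 159 log2 fold changes recomputed under the alternatives, 137 kept their direction and their side of the threshold, 15 reversed, 5 came past the threshold and 2 no longer passed it. Of 114 counts of genes called 97 stayed within 1.5 times, and 23 of 30 levels, 19 of 24 shares, 4 of 12 pair counts and 16 of 20 ratios between libraries stayed within their interval. With 1 library left out, genes called ran from 2989 to 4629 in cluster 8, 909 to 1128 in cluster 7, 342 to 510 in cluster 9, 318 to 357 in cluster 10, 939 to 1697 in cluster 8 against 10 and 471 to 1688 in activated cDC-like barcodes against cluster 8, where the values with all libraries were 4569, 1603, 874, 798, 1479 and 1358. The log2 fold change then ran from 2.06 to 2.78 for Il23a, 4.12 to 5.30 for Il27 and -0.26 to 0.13 for Ebi3 in cluster 7, -0.39 to 0.48 for Il12b and -0.59 to 1.30 for Il23a in cluster 9 (which could be fitted in 2 of the 3), -3.23 to -0.42 for Il12b and -0.81 to 0.40 for Ebi3 in cluster 10, 5.04 to 7.75 for Il12b and 1.29 to 2.21 for Ebi3 in cluster 8 against 10 and -0.87 to -0.52 for Ebi3 in activated cDC-like barcodes against cluster 8. With cluster 8 left out of the other cDC1s, Il12b read 0.20 in cluster 7, 3.41 in cluster 9 and 1.99 in cluster 10, and Ebi3 0.0468 in cluster 7 and 0.0833 in cluster 10, which follows from the Il12b and Ebi3 of cluster 8. DESeq2 gave 0.11 for Il12b in cluster 9, 0.0381 for Ebi3 in cluster 10 and 860 genes called in activated cDC-like barcodes. Ebi3 in cluster 10 read 0.0452 without TMM factors and 0.000594 without doublets, where Il12b in cluster 9 read 0.0321 and the Il12b level of WT table cDC1s 66.0 CPM. With no filter, Il12b in cluster 10 read -1.22 and Ebi3 in activated cDC-like barcodes -0.73. Ebi3 there read -0.74 with the library as a replicate block, which changed no other call of a subunit, and -0.96 against the cluster 8 cells of the activated cDC-like cluster. With clusters weighted equally, Il12b in table cDC1s was 209, 194 and 104 CPM in WT, sGSN-/- and sGSN-/-Clec9a-/-, with WT highest, Il27 in WT 1.10, and Ebi3 22.8 in WT and 24.4 in sGSN-/-Clec9a-/-. Thinning gave Ebi3 in 18.6% and 15.3% of cluster 8 cells in WT and sGSN-/-, Il12a in 29.0%, 26.4% and 23.4% of plasmacytoid-like barcodes, and 0.345, 4.34, 5.16 and 5.40 barcodes with both chains of IL-12, IL-23, IL-27 and IL-35, and with 2 UMIs of each chain 0, 5, 6 and 2 were counted. Without the top barcode of each library, sGSN-/-Clec9a-/- moved to 0.441 times sGSN-/- and 0.631 times WT for Il12b in activated cDC-like barcodes, and to 0.725 and 0.429 times sGSN-/- for Il27 in cluster 7 and in all table cDC1s. Where no construction of the alternative shows it, the cause was not tested.

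Each genotype is 1 library of pooled mice, so the spread between mice is unknown, and with a library left out the fits rest on 2 sums a group. Il12a, Il23a and Il27 were counted in few cDC1s, and no UMI in a cell does not show that a chain is absent. Cluster 8 of sGSN-/-Clec9a-/- had 57 cells at a median of 8459 UMIs. The names of classes outside the table rest on marker RNA alone, and UMIs count RNA, not secreted cytokine.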

Other observations

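In cluster 4 of the table, where Il12b was otherwise scarce, 1 sGSN-/-Clec9a-/- cell held 15 of the 18 Il12b UMIs of its library.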
